A study of Homo sapiens with 24 samples.

Results

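Immune checkpoint ligands are surface or secreted proteins through which a tumor cell restrains the T cells, natural killer cells and macrophages that meet it. The 10 genes described here encode PD-L1 (CD274), PD-L2 (PDCD1LG2), B7-H3 (CD276), B7-H4 (VTCN1), galectin-9 (LGALS9), CD47, the poliovirus receptor (PVR), nectin-2 (PVRL2), CD73 (NT5E) and HVEM (TNFRSF14), out of 25992 gene names on the array. They were chosen by gene name, and all of their 21 probes were followed, out of 34127 probes in all. Of these, 20 entered the tests because every array of some group measured them well above background, as did 23827 probes in total. The exception was the second VTCN1 probe, A_33_P3329169, which was well above background on 1 of 24 arrays.

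The study profiled the transcriptome of A549 and H1975, 2 human non-small cell lung cancer cell lines, with 1 one-color Agilent array per sample. Cells of each line received 0.75 mg/ml Pirfenidone, an antifibrotic drug, or a matching volume of its solvent PBS for 6 h or 24 h, which gives 8 groups of 3 arrays. The dose is that of the sample labels, and a legend of the study gives a higher one for A549 transcriptome data. The labels do not say that replicates are separate cultures, so p-values measure the spread between these arrays, which may be technical.

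PD-L1 and PD-L2 bind PD-1 on activated T cells and dampen signaling from the T cell receptor. CD47 engages SIRP alpha on macrophages and blocks engulfment, while PVR and nectin-2 are shared by the inhibitory receptor TIGIT and the activating receptor CD226. CD73 makes adenosine, which suppresses lymphocytes, from AMP.

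Levels are given as the log2 signal of a probe minus the 75th percentile of its array, so 0 is the signal at that percentile, and levels of different probes are not compared. A probe passed a comparison at an adjusted p of at most 0.05 (limma, Benjamini-Hochberg adjustment over all 23827 probes) together with a change of at least 2-fold. Between 62.7% and 69.5% of the probes of an array were well above background, and no probe was saturated. The 6 epithelial markers, EPCAM, CDH1 and the keratins KRT7, KRT8, KRT18 and KRT19, exceeded background clearly on every array of both lines. Of 15 blood cell markers, 6 were so on all A549 arrays and 7 on all H1975 arrays, whereas MS4A1, NCAM1, NKG7 and KLRD1 were so on no H1975 array, and the part of this in the results was not tested. Of 5 probes for 2 genes of the chromosome 9 region known to be lost from A549, MTAP among them, 3 were well above background on no A549 array and on all 12 H1975 arrays, and the other 2, 1 of MTAP included, were so on all 12 arrays of both lines. Arrays carry 4 dates in their deposited names, called runs 1 to 4 here, and what these dates mark is not stated. Each group has 1 array in each run used (runs 1, 2 and 3 for A549, runs 1, 3 and 4 for H1975). The lines shared runs 1 and 3 only, and no slide held arrays of both lines, so line and slide cannot be told apart. In run 3 the H1975 PBS 24 h array was on slide 1 and scan day 3, the other H1975 arrays on slide 3 and scan day 2. Differences within run 3 that use this array therefore also compare slides and scan days.

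The 2 genes of the PD-1 ligands are neighbors on chromosome 9, in the order PLGRKT, CD274, PDCD1LG2 and RIC1 among protein-coding genes of the RefSeq annotation of GRCh38.p14. Each was read by 2 probes of 60 bases, with positions on hg19, the build of the array files. CD274 was read by A_23_P338479 at chr9:5468310-5468369 and by A_33_P3381513 at chr9:5465546-5465605. PDCD1LG2 was read by A_33_P3213707 at chr9:5557692-5557751 and by A_23_P94412, whose 60 bases span 8073 bases of genome (chr9:5549556-5557628) and therefore cross a splice junction. An hg19 annotation was not used here, so exon and UTR positions are not given. The probe sequences below, 5′ to 3′ in lower case, show transcript stretches that 3 of these 4 probes read.
CD274 A_33_P3381513: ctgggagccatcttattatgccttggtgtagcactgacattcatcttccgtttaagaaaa
PDCD1LG2 A_23_P94412: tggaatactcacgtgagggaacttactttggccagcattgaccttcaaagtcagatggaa
PDCD1LG2 A_33_P3213707: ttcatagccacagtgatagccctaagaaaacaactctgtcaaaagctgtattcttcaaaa

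CD274 expression separated the cell lines. With probe A_23_P338479, PBS treated A549 cells gave −5.65, −5.78 and −4.95 at 6 h (runs 1, 2 and 3), and −6.31, −6.01 and −5.53 at 24 h. PBS treated H1975 cells gave −1.02, −1.31 and −1.24 at 6 h (runs 1, 3 and 4), and −2.09, −1.96 and −2.09 at 24 h. This probe was well above background on all 12 arrays of each line, so CD274 was detected in A549 as well. Every H1975 array lay above every A549 array. The difference was 4.27 ± 0.24 (log2, SE) at 6 h, 19.3-fold, and 3.90 ± 0.24 at 24 h, with adjusted p of 1.63e-11 and 6.43e-11 (limma, n = 3 per group). The second CD274 probe was well above background on all 12 H1975 arrays and on no A549 array, and the PBS difference was at least 10.5-fold at 6 h and at least 5.44-fold at 24 h. For a group that is not well above background, such a bound uses the lowest signal well above background on each of its arrays. It holds for the main processing only. Over other settings the log2 difference was as low as 1.93 at 6 h and 1.48 at 24 h with this probe, and 3.34 and 2.74 with the first.

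PDCD1LG2 was well above background in H1975 only. Both of its probes were so on no A549 array, and thus entered the tests through H1975, where they are high, so no p is given for them between the lines. In H1975 treated with PBS for 6 h, probe A_23_P94412 gave −5.48, −6.02 and −6.07, and the level was at least 2.02-fold above that of A549. At 24 h the bound was 1.08-fold, with measured means of −6.62 in H1975 and −9.03 in A549. The other probe gave a bound of 1.61-fold at 6 h, and at 24 h 1 of the 3 H1975 arrays was well above background. With normexp background correction neither PDCD1LG2 probe reached the adjusted p or 2-fold between the lines, with differences of 0.66 and 0.43 at 6 h, so these low levels rest on how background was treated.

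**Figure D1:**
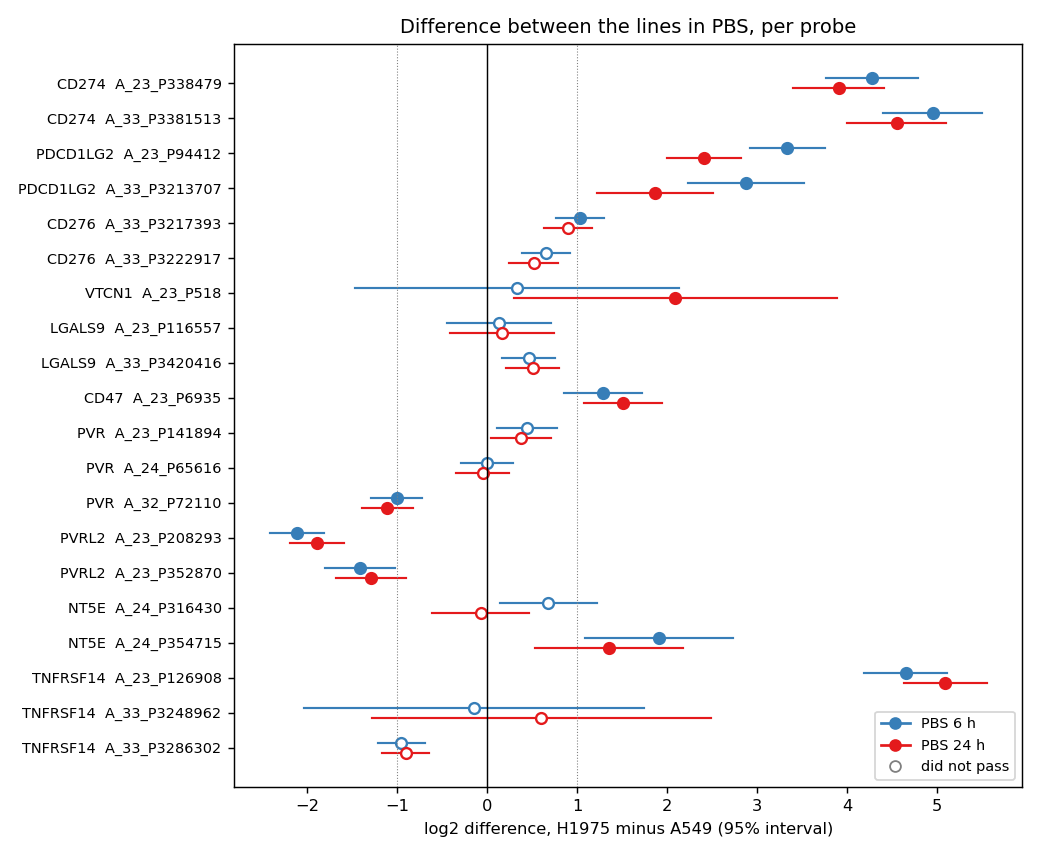
Difference between PBS treated H1975 and A549 cells for each tested probe of the 10 genes (log2, x axis), at 6 h and at 24 h, with 95% confidence intervals from limma (3 arrays per group). Filled points passed the test, and dotted lines mark 2-fold. CD274 A_33_P3381513 and both PDCD1LG2 probes were well above background on no A549 array and entered the tests through H1975. Their points and intervals rest on A549 signal that is not well above background. Both CD274 probes and TNFRSF14 probe A_23_P126908 lie farthest to the right and both PVRL2 probes farthest to the left.

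Among the B7 family members, CD276 was higher in H1975 and VTCN1 was scattered. CD276 encodes a B7 protein that is widely present on carcinomas. Its probe A_33_P3217393 (chr15:73996699-73996758) averaged −2.63 ± 0.06 (SD, n = 3) in H1975 and −3.66 ± 0.14 in A549 after 6 h of PBS, a difference of 1.03 (limma adjusted p = 1.11e-06). That 6 h difference fell under 2-fold with normexp background correction (0.87), quantile normalization (0.95) and scan day as a block (0.92). It also did so without A549 PBS 6 h replicate 2 (0.95). At 24 h the difference was 0.90 (adjusted p = 5.82e-06), under the 2-fold limit, and 1.02 without A549 PBS 24 h replicate 3. The brighter CD276 probe, A_33_P3222917, differed by 0.65 and 0.52, also under 2-fold. VTCN1 encodes a ligand whose receptor on T cells is not settled. Its probe read −4.79, −6.60 and −7.43 in A549 after 6 h of PBS, and −2.70, −6.11 and −4.77 in H1975 after 24 h of PBS, with the run 1 array highest in both. This probe entered the tests through H1975, where every array measured it well above background, against at most 2 of 3 in each A549 group. It passed between the lines at 24 h only, by 2.09 ± 0.86 (limma adjusted p = 0.043), with groups that overlap. It no longer passed without the filter on dim probes (limma adjusted p = 0.0501) or with quantile normalization (0.0559). That call was lost without any 1 of 4 arrays: the adjusted p was 0.119 and 0.155 without A549 PBS 24 h replicate 1 or 2, and 0.0658 and 0.257 without H1975 PBS 24 h replicate 2 or 3, where the last brought the difference to 1.18.

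Nectin-2 ran the other way, and PVR had no single direction. PVRL2 probe A_23_P208293, which lies at chr19:45392321-45392380 and is assigned to transcript variant NM_001042724, gave 3.27, 3.43 and 3.45 in A549 and 1.14, 1.28 and 1.39 in H1975 after 6 h of PBS. Groups did not overlap, and H1975 was lower by 2.11 on the log2 scale at 6 h (−2.11, limma adjusted p = 2.16e-10) and by 1.89 at 24 h (−1.89, adjusted p = 1.13e-09). The probe of variant NM_002856, A_23_P352870, differed by −1.41 and −1.29 (limma adjusted p = 2.27e-06 and 6.97e-06). PVR was split by probe. Its brightest probe, A_24_P65616, differed by −0.00 and −0.05 between the lines, while A_32_P72110, which lies farthest along the gene at chr19:45168363-45168422, differed by −1.01 and −1.11 and passed at both times (limma adjusted p = 2.9e-06 and 8.11e-07). The remaining probe, A_23_P141894, differed by 0.44 and 0.38, the opposite sign.

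CD47 was higher in H1975. The arrays of PBS treated cells at 6 h read 1.32, 1.28 and 1.71 in A549 and 3.10, 2.50 and 2.57 in H1975. The groups stood apart by 1.29 (2.44-fold, limma adjusted p = 2.89e-05), and at 24 h by 1.51 (2.85-fold, adjusted p = 4.32e-06). LGALS9, which encodes a ligand of TIM-3, differed little. Its probe A_33_P3420416 was 0.46 and 0.51 higher in H1975 (limma adjusted p = 0.00793 and 0.00409), under 2-fold, and A_23_P116557 differed by 0.13 and 0.16 and did not pass. LGALS9 has near-identical copies in the genome, which these probes may also bind.

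NT5E was higher in H1975 with 1 of its probes. Probe A_24_P354715 (chr6:86204891-86204950) read 0.01, −0.98 and 0.08 in A549 and 1.81, 1.56 and 1.46 in H1975 after 6 h of PBS, a difference of 1.91 (3.75-fold, limma adjusted p = 0.000358). At 24 h it differed by 1.36 (2.56-fold, adjusted p = 0.00595), where leaving out A549 PBS 24 h replicate 1 brought it to 0.98, under 2-fold. Probe A_24_P316430, whose 60 bases span 4014 bases of genome, differed by 0.68 at 6 h (adjusted p = 0.0302) and by −0.07 at 24 h. A549 arrays of 1 group spread over more than those of H1975 with both probes, the SD at 24 h in PBS being 0.76 and 0.68 in A549 and 0.10 and 0.17 in H1975.

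TNFRSF14 also stood far apart between the lines with 1 of its probes, and its probes disagreed. HVEM, its product, binds BTLA on lymphocytes and also the costimulatory ligand LIGHT. Probe A_23_P126908 (chr1:2495144-2495203) gave −5.41, −5.80 and −6.11 in A549 and −1.33, −1.01 and −1.03 in H1975 after 6 h of PBS. H1975 was higher by 4.65 on the log2 scale at 6 h (limma adjusted p = 9.23e-13) and by 5.09, 34.0-fold, at 24 h (adjusted p = 2.25e-13). Probe A_33_P3286302 lies further toward the start of the gene (chr1:2493038-2493097) and is assigned to ENST00000463835. It was lower in H1975, by −0.95 and −0.91 (limma adjusted p = 1.94e-06 and 3.61e-06). Over the 24 arrays the levels of these probes correlated at r = −0.92, which carries the difference between the lines. After removing line means r was 0.25, with −0.46 within A549 and 0.63 within H1975. The third probe, A_33_P3248962, was well above background on 13 of 24 arrays and differed by −0.14 and 0.60, neither passing.

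In all, 11 of the 20 tested probes passed between the lines at 6 h, against 32.4% of all tested probes. Of the 11, 3 were lower in H1975, beside 15.3% of all probes, and the others higher. The 3 probes of CD274 and PDCD1LG2 that no A549 array measured are among those higher at each time, and they entered the tests through H1975. VTCN1 A_23_P518, among those higher at 24 h, also entered through H1975. At 24 h the count was again 11, against 32.9%, with 8 higher (18%) and 3 lower (14.9%). The groups did not overlap for 16 probes at 6 h and 15 at 24 h, against 66.3% and 63.6% of all probes. The median difference of the 20 probes was 0.56 at both times, beside 0.06 and 0.08 over all tested probes. With normexp background correction 7 passed at each time. A difference between 2 cell lines compares those lines and no wider class of tumors. Here it also compares slides, since no slide held arrays of both lines.

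No checkpoint ligand probe passed the test with Pirfenidone in either line. The count was 0 of the 20 probes in A549 at 6 h, A549 at 24 h, H1975 at 6 h and H1975 at 24 h, where limma passed 0.176%, 0.0126%, 0.491% and 1.89% of all tested probes. CD274 A_33_P3381513 and both PDCD1LG2 probes were well above background on no A549 array. The A549 counts here and below include them, although no A549 response could be measured with them. At an unadjusted p under 0.05 the counts were 0, 0, 3 and 6, beside 6.01%, 0.953%, 11% and 22% of all probes. The adjusted p alone was at most 0.05 for 1 probe, CD276 A_33_P3217393 in H1975 at 24 h, where 2.91% of all probes were called higher by that rule. The methods' t-test, paired by run, called 0 of the 20 probes at 2-fold in each comparison, before and after Benjamini-Hochberg adjustment. That adjustment of the paired test was chosen after seeing the data. Pairing does not change the mean differences, and only VTCN1 in H1975 at 24 h reached 2-fold (1.01 on the log2 scale). For the other probes the fold limit alone therefore fixed that outcome, whatever the p.

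In A549 the differences of the 20 probes lay between −0.56 and 0.84 at 6 h, and the extremes were VTCN1 and the dim TNFRSF14 probe A_33_P3248962. CD274 probe A_23_P338479 read −5.87, −6.12 and −5.14 with Pirfenidone for 6 h, and −6.32, −6.13 and −5.98 for 24 h. These overlapped the PBS arrays at each time, with differences of −0.25 (95% interval −0.76 to 0.26) and −0.19 (−0.70 to 0.32). Within runs this probe was lower with Pirfenidone in all 3 runs at each time, by −0.34 to −0.19 at 6 h and by −0.45 to −0.01 at 24 h. The 2 PVRL2 probes were the ones whose groups did not overlap at 6 h, both lower with Pirfenidone, beside 15.3% of all probes in either direction and 8.23% in this one. PVRL2 probe A_23_P208293 differed by −0.28 (unadjusted p = 0.0649, limma adjusted p = 0.887) and A_23_P352870 by −0.21. At 24 h all 20 probes overlapped between Pirfenidone and PBS in A549, where 1.82% of all probes did not. For both PDCD1LG2 probes and CD274 A_33_P3381513 this overlap compares signals that are not well above background.

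In H1975 CD274 was lower in every run after 6 h of Pirfenidone. With probe A_23_P338479 the treated arrays read −1.79, −2.37 and −2.01 in runs 1, 3 and 4, below all PBS arrays (−1.02, −1.31 and −1.24). The second probe read −4.18, −4.35 and −4.47 with Pirfenidone and −3.33, −3.63 and −3.49 with PBS, again without overlap. The difference was −0.87 ± 0.24 (SE, 95% interval −1.38 to −0.36, 1.83-fold) with the first probe and −0.85 ± 0.26 (1.81-fold) with the second. Neither was significant in the fit over 8 groups (limma adjusted p = 0.095 and 0.142). The runs differed by −0.78, −1.07 and −0.77 with the first probe and by −0.85, −0.72 and −0.99 with the second.

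Runs paired the H1975 arrays, so the fit was repeated with run as a block. The adjusted p for CD274 was then 0.00327 and 0.0396 (limma). With the replicate number as a block it was 0.011 for the first probe, but equal numbers join arrays of different runs in this comparison. Within runs 3 of the 20 probes had an adjusted p of at most 0.05 in this comparison, all lower, beside 2.35% of all probes called lower by this rule. The third was PVR A_24_P65616, at −0.29 (limma adjusted p = 0.0468). None reached 2-fold. The scaling matters for the second CD274 probe. With normexp background correction it differed by 0.10 (limma adjusted p = 0.858), where the median of all probes was 0.29, so relative to that median it was at −0.19, while the first probe was at −0.89 on the same footing.

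**Figure D2:**
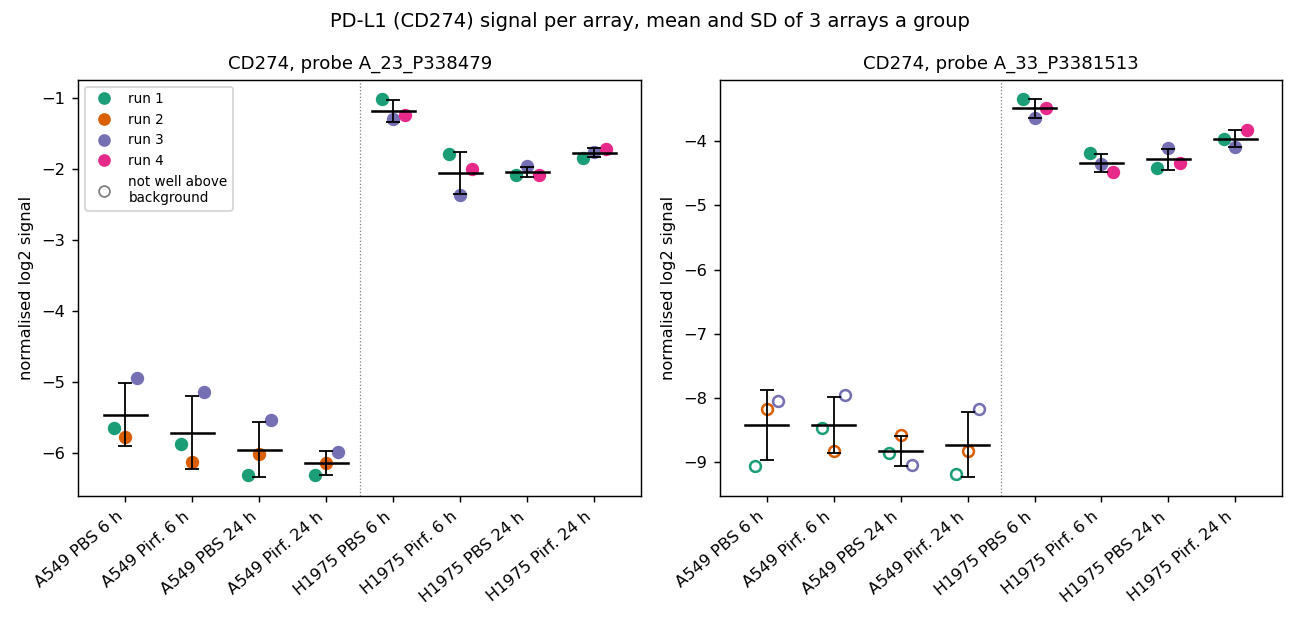
CD274 level on each array (log2 signal relative to the 75th percentile of the array, y axis) by cell line, time and treatment for both probes, with points for arrays, colored by run and open where not well above background, and bars for group means with SD. In H1975 the PBS arrays at 6 h lie above the Pirfenidone arrays at 6 h and both groups at 24 h, while A549 arrays lie far lower.

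PDCD1LG2 gave smaller differences at 6 h in H1975. Probe A_23_P94412 read −6.12, −6.17 and −6.37 with Pirfenidone, just below the PBS arrays, a difference of −0.36 (limma adjusted p = 0.555). The other probe overlapped, with −0.28. Over the whole set, 8 of the 20 probes had groups that did not overlap in this comparison, beside 17.7% of all probes. They were 3 higher, beside 10.6%, and 5 lower, beside 7.14%. The median difference of the 20 was −0.01, beside 0.05 over all probes.

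After 24 h in H1975 the values lay higher with Pirfenidone for several ligands. PDCD1LG2 probe A_23_P94412 read −5.67, −6.26 and −6.14 with Pirfenidone and −6.18, −6.93 and −6.75 with PBS. Overlapping as groups, these were higher in each of runs 1, 3 and 4, by 0.51, 0.67 and 0.61. The mean difference was 0.60 ± 0.20 (SE, 1.51-fold, limma adjusted p = 0.0792), and the second probe differed by 0.70 (adjusted p = 0.184), or by 0.38 without H1975 Pirfenidone 24 h replicate 3. With run as a block the adjusted p was 0.00475 and 0.0306. With normexp background correction the differences were 0.16 and 0.21, with an adjusted p of 1 for both.

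NT5E was read here with the junction-spanning probe A_24_P316430 (chr6:86176992-86181005) and TNFRSF14 with A_23_P126908. The NT5E sequence and that of the CD276 probe that had an adjusted p under the threshold are given, since these probes carry the 24 h values.
NT5E A_24_P316430: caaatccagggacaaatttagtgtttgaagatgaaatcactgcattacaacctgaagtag
CD276 A_33_P3217393: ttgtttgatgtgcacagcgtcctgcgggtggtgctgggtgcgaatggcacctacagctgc

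NT5E probe A_24_P316430 read −0.72, −1.06 and −0.95 with Pirfenidone and −1.60, −1.81 and −1.48 with PBS after 24 h in H1975. The groups did not overlap, and the difference was 0.72 ± 0.26 (SE, 1.65-fold, limma adjusted p = 0.105). The second NT5E probe, A_24_P354715, read 2.16, 1.87 and 1.91 against 1.37, 1.24 and 1.18, a difference of 0.71 (limma adjusted p = 0.304). With run as a block the adjusted p was 0.0132 and 0.0233.

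TNFRSF14 probe A_23_P126908 read 0.39, 0.18 and 0.03 with Pirfenidone and −0.28, −0.62 and −0.42 with PBS. Here too the groups stood apart, by 0.64 ± 0.22 (SE, 1.55-fold, limma adjusted p = 0.0914, and 0.0355 with run as a block). The probe of ENST00000463835 differed by 0.09, with overlapping groups.

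CD276 probe A_33_P3217393 read −2.26, −2.04 and −2.11 with Pirfenidone and −2.60, −2.55 and −2.57 with PBS. All treated arrays were higher, by 0.43 ± 0.13 (SE, 1.35-fold), with a limma adjusted p of 0.0497 and of 0.00898 with run as a block. Leaving out any 1 of the 6 arrays gave an adjusted p between 0.103 and 0.137, and normexp background correction 0.408. The brighter CD276 probe read 4.38, 4.52 and 4.67 against 4.36, 3.98 and 4.32, a difference of 0.31 (limma adjusted p = 0.166).

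CD274 itself differed by 0.27 (95% interval −0.24 to 0.78, limma adjusted p = 0.582) and 0.32 (adjusted p = 0.532) at 24 h. The Pirfenidone arrays of probe A_23_P338479 read −1.84, −1.77 and −1.72, all above the 24 h PBS arrays. VTCN1 differed by 1.01 ± 0.86 (SE), within its scatter. CD47, LGALS9 and PVRL2 differed by between −0.23 and 0.01, and the 3 PVR probes by between 0.03 and 0.23.

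With run as a block 6 of the 20 probes had an adjusted p of at most 0.05 at 24 h in H1975, all higher and none by 2-fold, beside 11.7% of all probes called higher by this rule. They were both PDCD1LG2 probes, both NT5E probes, TNFRSF14 A_23_P126908 and CD276 A_33_P3217393. The groups of 8 probes did not overlap, all higher with Pirfenidone, beside 31.9% of all probes in either direction and 16.3% higher. The median difference of the 20 was 0.25, beside 0.02 over all probes.

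**Figure D3:**
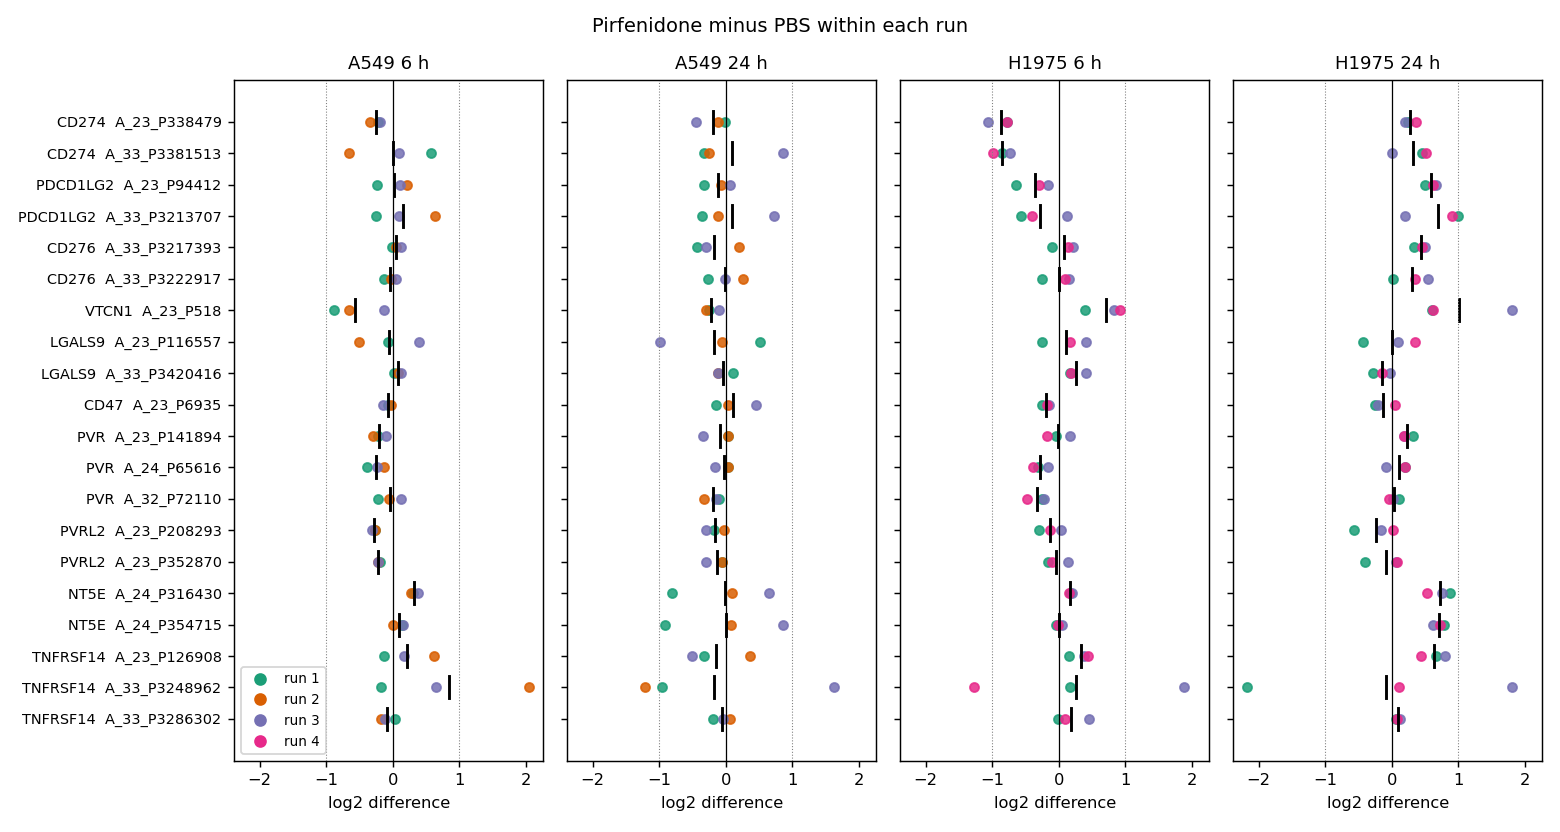
Pirfenidone minus PBS within each run (log2, one point per run and probe) for the tested probes in H1975 and A549 at 6 h and 24 h, with black ticks for the mean and dotted lines at 2-fold. The CD274 points in H1975 lie below 0 at 6 h in all 3 runs, and those of PDCD1LG2, NT5E, CD276 A_33_P3217393 and TNFRSF14 A_23_P126908 lie above 0 at 24 h.

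A difference in drug response between the lines was tested directly, and 0 of the 20 probes passed. At 6 h limma passed 0.0336% of all probes, and 1 of the 20 had an unadjusted p under 0.05, beside 2.63% of all. At 24 h it passed 0.193%, and 3 of the 20 had one, beside 12.2%. The 1 at 6 h was CD274 A_33_P3381513, and the 3 at 24 h included PDCD1LG2 A_23_P94412. Of the 20, CD274 A_33_P3381513 and both PDCD1LG2 probes were well above background on no A549 array. These counts thus include probes without a measured A549 response. The CD274 response at 6 h differed between the lines by −0.62 with probe A_23_P338479 (limma adjusted p = 1). The 24 h response of CD276 A_33_P3217393 was 0.61 greater in H1975 (adjusted p = 0.163). Runs paired the A549 arrays weakly at best at 24 h, with correlations of deviations from group means of −0.10, 0.39 and 0.08. With run as a block CD276 A_33_P3217393 reached a limma adjusted p of 0.0286, 1 of 2 called of 20, beside 3.33% of all probes called greater in H1975. The other was PDCD1LG2 A_23_P94412, which no A549 array measured, so A549 has no measured response to compare and no value is given.

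Within H1975 the CD274 response at 24 h exceeded that at 6 h by 1.14 ± 0.34 (SE) with the first probe and by 1.18 with the second (limma adjusted p = 0.516 and 0.553). By this test 0 of the 20 probes passed, beside 0.0042% of all probes, and 4 had an unadjusted p under 0.05, beside 5.86%. With run as a block the first CD274 probe passed the whole rule, with an adjusted p of 0.0398, where 0.189% of all probes passed, and it also did with slide as a block (adjusted p = 0.0373, 0.147% of all probes). The second had an adjusted p of 0.143 with run as a block, and with normexp background correction its difference was 0.10. PDCD1LG2 A_23_P94412 had an adjusted p of 0.0284 with run as a block, at 0.96, under 2-fold. With normexp background correction its direction turned, to −0.80, and that of the other PDCD1LG2 probe to −0.76, where the median of all probes was −0.29. The adjusted p alone thus called 2 of 20 with run as a block, beside 0.189% of all probes called higher. In A549 0 probes passed the same test, beside 0.0294%, and 0 had an unadjusted p under 0.05, beside 3.04%.

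The PBS arrays of H1975 differed between the time points too, and they are the same arrays that serve as controls above. Between 6 h and 24 h in PBS, CD274 differed by −0.86 and −0.80 (limma adjusted p = 0.122 and 0.208), with no overlap between times. PDCD1LG2 differed by −0.76 and −0.83 (adjusted p = 0.0895 and 0.29), but by −0.22 with either probe under normexp background correction, and the second by −0.52 without H1975 PBS 6 h replicate 1. NT5E A_24_P316430 differed by −0.76 (adjusted p = 0.231). PVRL2 A_23_P208293 differed by 0.57 (adjusted p = 0.0805) and TNFRSF14 A_23_P126908 by 0.69 (adjusted p = 0.19).

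By the passing rule 0 of the 20 probes passed in this comparison, beside 0.315% of all probes, and 7 had an unadjusted p under 0.05, beside 10.6%. The groups of 9 probes did not overlap, beside 18.9% of all probes, with 3 higher at 24 h (10.7%) and 6 lower (8.23%). With run as a block 2 probes were higher and 5 lower at an adjusted p of at most 0.05, beside 5.15% and 2.47% of all probes. The adjusted p was 0.0036 and 0.0495 for CD274, 0.00172 and 0.0294 for PDCD1LG2, and 0.0198 for NT5E A_24_P316430 (limma). For PVRL2 A_23_P208293 it was 0.00253 and for TNFRSF14 A_23_P126908 0.0495. In A549 0 passed, beside 0.109%, and 1 had an unadjusted p under 0.05, beside 8.49%, PVRL2 A_23_P208293 at 0.35 (limma adjusted p = 0.523).

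The order of group means of CD274 A_23_P338479 was therefore H1975 PBS 6 h (−1.19 ± 0.15, SD, n = 3), H1975 Pirfenidone 24 h (−1.78 ± 0.06), H1975 PBS 24 h (−2.05 ± 0.08), H1975 Pirfenidone 6 h (−2.06 ± 0.29), and then the A549 groups between −5.46 and −6.14. H1975 PBS 24 h and Pirfenidone 6 h overlapped, as did all neighbors among the A549 groups. The second probe gave the same order in H1975. The arrays of H1975 treated for 6 h with Pirfenidone thus overlapped those of PBS treated cells at 24 h.

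**Figure D4:**
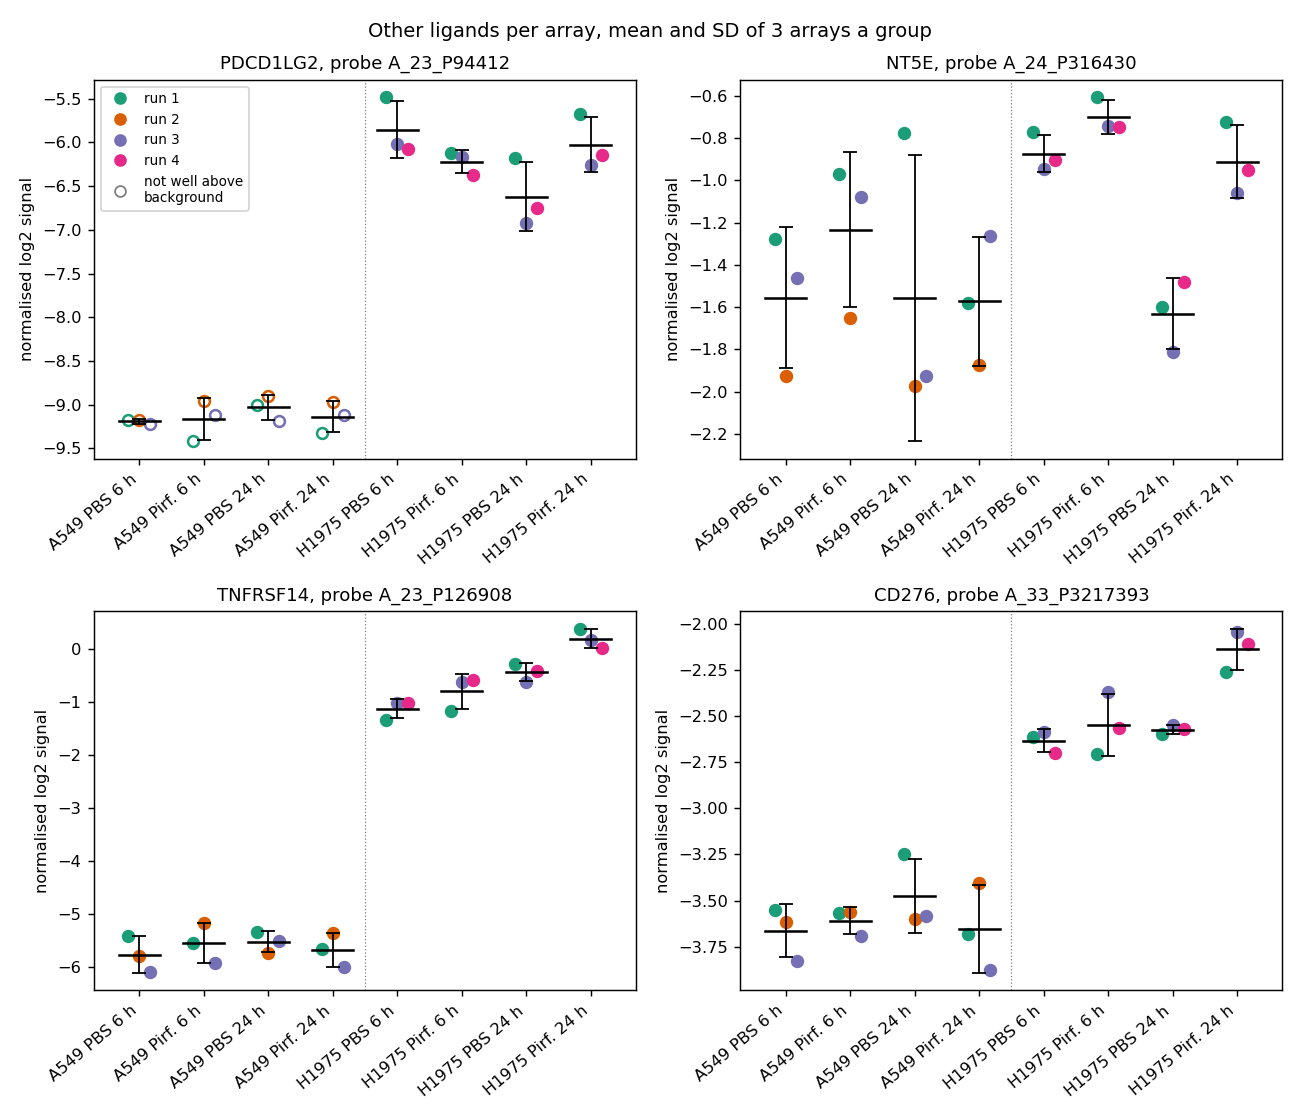
Levels of PDCD1LG2 A_23_P94412, NT5E A_24_P316430, TNFRSF14 A_23_P126908 and CD276 A_33_P3217393 on each array (log2 signal relative to the 75th percentile of the array, y axis), by line, time and treatment, with points colored by run, open where not well above background, and bars for group means with SD. In H1975 the 24 h Pirfenidone points sit above the 24 h PBS points for NT5E, TNFRSF14 and CD276, and PDCD1LG2 lies near the floor in A549.

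Across the 12 H1975 arrays the 2 CD274 probes correlated at r = 0.94, and over all 24 arrays after removing line means at 0.75. Over the same 24 arrays the agreement was 0.87 for PDCD1LG2, 0.77 for CD276, 0.73 for NT5E, 0.58 for PVRL2 and 0.55 for LGALS9. It was −0.17 for VTCN1, −0.08, 0.11 and 0.56 for the pairs of PVR probes, and 0.25, −0.13 and −0.07 for those of TNFRSF14. No A549 array measured PDCD1LG2 or the second CD274 probe well above background, so A549 adds such signal to their values. Within H1975 the PDCD1LG2 probes correlated at 0.91. Among the probes whose levels followed CD274 A_23_P338479 most closely within the lines, out of 18836 probes compared over 24 arrays, were those of EVA1A (r = 0.83), CYR61 (0.81), CHST11 (0.81) and WDR1 (0.80). These arrays share runs and treatments.

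The 250 bases before the RefSeq start of CD274 on GRCh38.p14, chr9:5450292-5450541 on the forward strand, are shown because interferon is the best known inducer of this gene. Capitals mark 2 overlapping matches to TTTC, any 2 bases and TTTC again, a core of the interferon-stimulated response element, at 208 to 199 and 202 to 193 bases before the start.
CD274 promoter: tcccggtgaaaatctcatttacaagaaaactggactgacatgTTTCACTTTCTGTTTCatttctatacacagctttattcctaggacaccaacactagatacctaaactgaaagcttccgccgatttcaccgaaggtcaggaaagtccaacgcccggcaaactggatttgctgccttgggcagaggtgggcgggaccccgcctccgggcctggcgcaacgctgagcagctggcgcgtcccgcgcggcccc

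Both strands were searched for 4 motifs in 35116 windows of 250 bases before RefSeq starts, and 9 of the 10 genes had a window, PDCD1LG2 being the exception. The response element core was found in 3.02% of all windows and, among the genes described here, in that of CD274 alone. The STAT motif TTCNNNGAA, in 6.57% of windows, also matched CD274 alone. The AP-1 motif TGANTCA, also in 6.57%, matched none of them, and ACGTG, the core of a hypoxia response element found in 18.5%, matched CD47 and 1 of 2 CD276 windows. These are matches of letters in these windows.

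Genes around these ligands rarely passed with Pirfenidone, and the same was true of the whole array. Of all tested probes, 0.176% (6 h) and 0.0126% (24 h) passed for A549, against 0.491% and 1.89% for H1975. At such shares a count of 0 in a list of 6 to 20 probes does not set that list apart. Of 20 tested probes for 15 interferon, JAK and STAT genes, 0 passed in any of the 4 drug comparisons. The same count of 0 held for 17 probes of 13 genes that act on the PD-L1 or CD47 protein, 14 probes of 10 transcription regulators known at the PD-L1 gene, 15 probes of the adenosine pathway around NT5E and 6 probes of the receptors. Among 24 probes for 21 other checkpoint and costimulatory ligands, 1 passed in H1975 at each time, TNFSF4, which encodes OX40 ligand. TNFSF4 was well above background on no PBS array of H1975 and on all Pirfenidone arrays, at least 2.56-fold higher at 6 h and 3.16-fold at 24 h. Every array measured it in these 2 Pirfenidone groups alone, so it entered the tests through them and no p is given. OX40 ligand costimulates T cells.

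The remaining passing genes, ULBP1 and RAET1E, encode ligands of NKG2D, among 13 tested probes for 8 genes of ligands of activating natural killer cell receptors. ULBP1 rose from −1.77 ± 0.17 (SD, n = 3) to 0.28 ± 0.35 in A549 at 6 h, by 2.04 (limma adjusted p = 0.00697). It rose by 1.85 in H1975 at 6 h (adjusted p = 0.00635) and by 1.93 at 24 h (adjusted p = 0.00364), and in A549 at 24 h it differed by −0.27 (adjusted p = 1). The 24 h responses differed between the lines by 2.20, with an adjusted p of 0.0587. RAET1E fell by 1.13 on the log2 scale in H1975 at 24 h (2.18-fold lower, adjusted p = 0.0272).

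Between the lines the counts of these lists stand beside the 32.4% of all probes that passed at 6 h, and values are log2 differences, H1975 minus A549 in PBS at 6 h, unless a fold is named. Of the 24 probes of other ligands 8 were higher and 6 lower in H1975. Among those higher were the CD27 ligand CD70 (2.70), the 4-1BB ligand TNFSF9 (2.20) and IDO1, which depletes tryptophan and was measured on no A549 array of this group, at least 2.62-fold above A549. Among those lower were the LAG-3 ligand FGL1, at least 572-fold below A549, CEACAM1 (−2.24) and CD24 (−2.04), a ligand of Siglec-10.

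Of the 20 interferon, JAK and STAT probes 2 were higher and 6 lower. SOCS1, which inhibits JAK kinases, stood at 2.69 and IRF9 at 1.29, against −1.52 for SOCS3, −1.52 for the interferon receptor chain IFNAR2 and −1.32 for STAT3. In the adenosine pathway, where CD73 stands, 6 of 15 probes were higher and 3 lower. DPP4, which anchors adenosine deaminase, was at 6.89, ENTPD3 at 5.09 and the receptor ADORA2A at 4.11, each of the first 2 being well above background on 1 A549 array. CD38 was at least 171-fold lower in H1975, ENTPD2 at −2.77 and ADA, the deaminase itself, at −1.23.

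Among 14 probes of transcription regulators 4 were higher, among them FOSL1 (1.91) and MYC (1.29), and TEAD1 was lower (−1.15). Of 17 probes for genes acting on the PD-L1 or CD47 protein, 3 of HIP1R were higher, by up to 2.44, while B4GALT1 (−1.19) and CUL3 (at least 2.85-fold) were lower. ULBP3 (1.62) and NCR3LG1 (1.17) were higher among the natural killer cell ligands, and of 6 receptor probes RGMB was higher (1.21) and LAG3 lower (−1.04). At 24 h the counts, higher and lower, were 10 and 5 for other ligands, 2 and 5 for interferon, JAK and STAT genes, 6 and 3 for adenosine, and 4 and 1 for transcription regulators. They were 3 and 2 for genes acting on the PD-L1 or CD47 protein, 1 and 0 for natural killer cell ligands, and 0 and 0 for receptors. Of all tested probes 18% were higher and 14.9% lower at that time. RGMB, LAG3, NCR3LG1 and SOCS3 did not pass at 24 h.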

How the data were processed

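The authors labelled total RNA with Cy3, hybridised it to Agilent arrays, and deposited 1 scanner file per sample, made with Agilent Feature Extraction 11.5.1.1 (per the submitters' processing notes and file headers), holding the background-corrected intensity of each spot. A deposited table of log2 values processed by the authors served as an alternative.

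Intensities were log2 transformed, the 75th percentile of the 43118 spots that are not controls was subtracted on each array, spots marked as outliers were dropped and replicate spots averaged. The 23827 probes that all 3 arrays of some group measured well above background were fitted over 8 groups with limma 3.58.1 in R 4.3.3 (16 residual degrees of freedom). The study's methods name a moderated test with a 2-fold limit and a Westfall-Young adjustment, replaced here by Benjamini-Hochberg. The scripts were tested on simulated data. Precision is limited by the number of arrays.

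All probes of the 10 genes are named, and of the surrounding lists the probes that passed, or the 3 largest in each direction where more than 6 did. Some genes that meet this rule are not reported here. The members and lists were chosen with earlier results of these data known.

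Pairing was checked from correlations of deviations from group means. By run these were 0.82, 0.50 and 0.70 in H1975 at 6 h, against −0.48, 0.43 and −0.68 by replicate number, and 0.46, 0.53 and 0.72 by replicate number at 24 h. In A549 they were 0.64, 0.70 and 0.58 by run at 6 h, but −0.10, 0.39 and 0.08 at 24 h. Run was used as a block because of the H1975 values at 6 h. The block was also fitted within A549, where runs paired the 24 h arrays weakly at best. Places on the slide follow treatment and time, so place and group cannot be told apart.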

Additional observations from a re-analysis of the deposited data

How the results depend on the processing

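Of 179 counts of passing probes recomputed under alternative settings, other than leaving out 1 array, 165 stayed within 1.5 times the value reported, and no result that passed changed sign. Between the lines, normexp background correction gave 7 probes at each time (5 higher and 2 lower in H1975), keeping only probes that every array measured well above background gave 7 at 24 h (14 probes tested), and averaging the probes of a gene gave 6 of 10 genes at each time. With run or slide as a block 1 probe passed for the difference in drug response between times in H1975 (CD274 A_23_P338479). Without the fold limit 1 probe passed for Pirfenidone in H1975 at 24 h.

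Some settings were chosen after seeing the data. Run as a block without the fold limit gave 3 probes in H1975 at 6 h, 6 at 24 h and 7 for PBS in H1975 between times. It gave 2 for the difference in drug response between the lines at 24 h and 2 for that between times in H1975. Scan day as a block gave 1 for PBS in H1975 between times (CD274 A_23_P338479, −1.11, limma adjusted p = 0.0052). Also so chosen were the Benjamini-Hochberg adjustment of the t-test paired by run and leaving out both A549 arrays of run 1 at 24 h. With 1 array left out, 10 to 11 probes passed between the lines at 6 h and 9 to 12 at 24 h, and 0 to 0 in every drug, time, drug-by-line and drug-by-time comparison.

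A fit with the replicate number as a block changed no count of passing probes by over 1.5 times. In the paired fit by that number, the CD274 difference at 6 h in H1975 was −0.87 with an adjusted p of 0.011, and PVRL2 A_23_P208293 between times was 0.57 with an adjusted p of 0.0374. Equal replicate numbers join arrays of different runs in both of these comparisons.

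PVR A_32_P72110 and CD276 A_33_P3217393 sat at the fold limit between the lines at 6 h. The first was at −0.91 with run as a block and the second at 0.87 with normexp background correction. Dim probes, PDCD1LG2 above all, carry only bounds in A549.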
